A study of Homo sapiens with 10 samples.

Results

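The annexin genes described here are ANXA1, ANXA2, ANXA3, ANXA4, ANXA5, ANXA6, ANXA7, ANXA8, ANXA8L1 and ANXA11, which are 10 of the 61533 genes in the count tables. They were chosen by gene name from the annexin family with values of T24R2 against T24 already known, so their differences between the lines are given as a description, without p-values. T24 is a human bladder cancer cell line that is sensitive to cisplatin. T24R2 was derived from it by serial exposure to the drug and is resistant. Each line has 5 RNA-seq libraries of cells grown for 3 days. The methods describe T24R2 as kept in medium with cisplatin, whereas the sample labels list the same drug-free medium for both lines. Line and drug exposure therefore cannot be told apart. Nothing in the labels says that replicates were separate cultures, so p-values given for other genes measure the spread between these libraries, which may be technical. The lists of other genes were also chosen with earlier results of these data known. Their p-values are therefore a description as well and do not test the lists.

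Annexins are proteins that bind acidic phospholipids of membranes when calcium rises. They share a conserved core of repeats that holds the calcium sites, and they differ in the head before it, which carries the binding sites for partners such as the S100 proteins. In epithelial cells annexins are known for sealing torn plasma membrane, for moving vesicles and, in the case of ANXA2 with its partner S100A10, for holding plasminogen and its activators at the cell surface.

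ANXA8 and ANXA8L1 are near-identical copies, and their sequence decides which reads can be assigned to either. ANXA8 (ENSG00000265190) lies on the minus strand of chromosome 10 at chr10:47460162-47484158 (hg38), and ANXA8L1 (ENSG00000264230) on the plus strand at chr10:46375627-46391784. Their MANE Select transcripts, the representative transcript of each gene, both have a coding sequence of 981 bases with the stop codon. In GENCODE 44 these differ at 5 bases, an identity of 99.5%, and the longest stretch without a difference is 408 bases. The 5 differences fall in 4 places, shown here with the differing bases in capitals because these bases are all that separates the coding sequences. Written as ANXA8 base, coding position counted from 1 at the A of the start codon, and ANXA8L1 base, they are T16G, C276T, A528G, G530C and T939C. The first and last stretches cross an exon junction, so their genomic spans (chr10:47479874-47483933 and chr10:47468872-47471267 in ANXA8) include an intron. The middle stretches are each within an exon, at chr10:47477106-47477146 and chr10:47474947-47474989 in ANXA8 and at chr10:46382627-46382667 and chr10:46384789-46384831 in ANXA8L1.
ANXA8 bases 1 to 36: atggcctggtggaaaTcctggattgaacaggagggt
ANXA8L1 bases 1 to 36: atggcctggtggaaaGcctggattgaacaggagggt
ANXA8 bases 256 to 296: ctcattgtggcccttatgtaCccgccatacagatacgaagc
ANXA8L1 bases 256 to 296: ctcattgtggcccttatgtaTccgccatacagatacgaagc
ANXA8 bases 508 to 550: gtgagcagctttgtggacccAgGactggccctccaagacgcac
ANXA8L1 bases 508 to 550: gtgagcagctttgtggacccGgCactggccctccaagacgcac
ANXA8 bases 919 to 959: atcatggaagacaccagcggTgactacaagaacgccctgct
ANXA8L1 bases 919 to 959: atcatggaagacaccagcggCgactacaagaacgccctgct

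Of the 1871 windows of 150 bases in the ANXA8 transcript, 57.2% were found letter for letter in another gene. In ANXA8L1 the share was 60.5% of 1759 windows. ANXA2 shared 115 of 1405 windows (8.19%) with its pseudogene ANXA2P2, and the other 7 members shared 0 windows with any other gene. The deposited counts hold uniquely mapped reads, so reads from the shared stretches of the ANXA8 pair are missing from both genes unless a mate reached a differing base, and the split of counts between the copies is uncertain.

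All 10 members passed the filter on low counts in the edgeR quasi-likelihood fit of 16181 genes. Calls needed a Benjamini-Hochberg adjusted p below 0.05 and a log2 fold change larger than 0.5 in either direction. By this rule 1 member, ANXA4, was higher in T24R2, where 24.9% of all tested genes were called higher. Another 5 members (ANXA2, ANXA7, ANXA8, ANXA8L1 and ANXA11) were lower, where 26.5% of all tested genes were called lower. ANXA1, ANXA3, ANXA5 and ANXA6 were not called, which leaves 6 of 10 members called beside 51.4% of all tested genes. The adjusted p alone was passed by 10 of 10 members and by 75.5% of the tested genes. ANXA5 no longer passed it under several alternatives, among them upper-quartile normalization, no scaling beyond library size and leaving out T24R2 replicate 2. The libraries of the lines did not overlap for 9 of 10 members and for 61.2% of the tested genes. Because the members were chosen with this contrast known, nothing is read from these counts. The median log2 fold change was -0.58 over the members and 0.01 over all tested genes. Without scaling beyond library size the median over all genes moved to 0.18, so that differences of that order depend on the scaling.

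**Figure D1:**
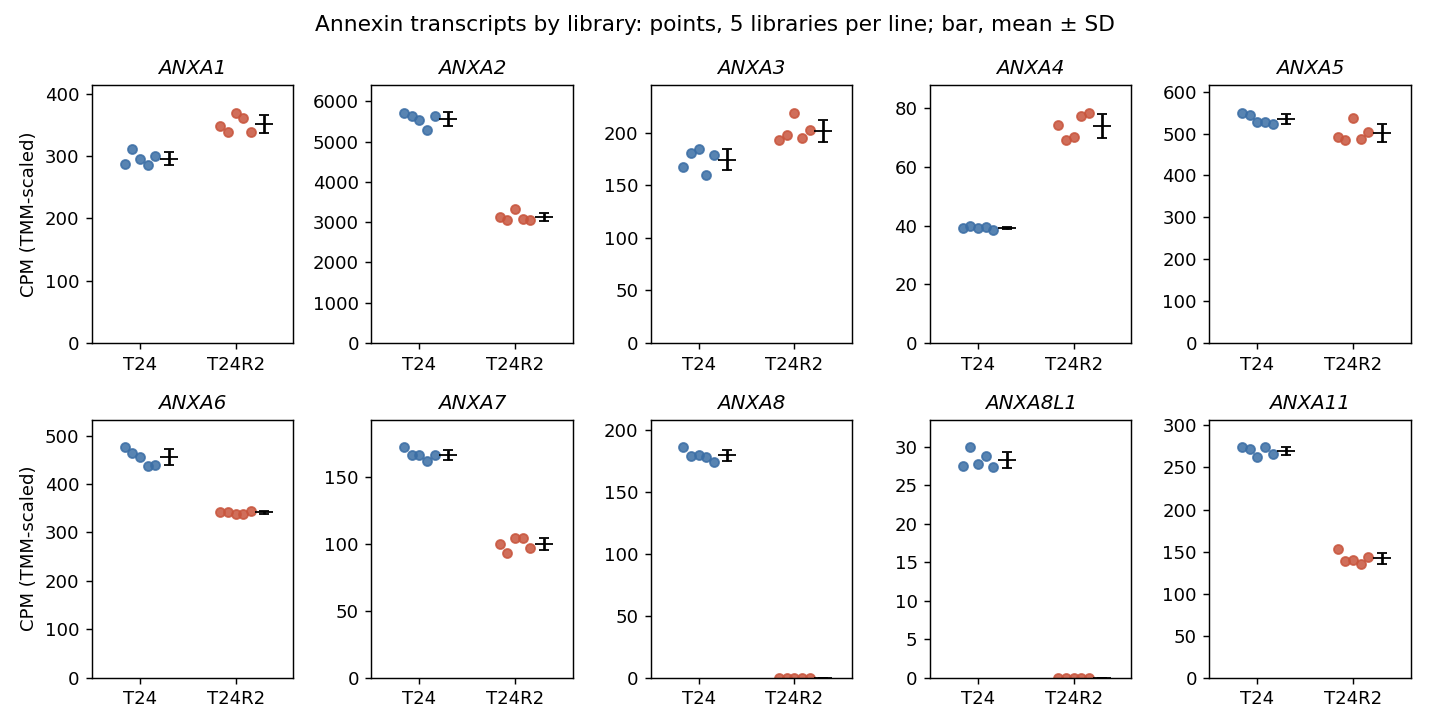
Level of each annexin gene in every library, in CPM (counts scaled to the TMM-scaled library size), on axes that start at 0. Points are the 5 libraries of T24 (blue) and of T24R2 (red), and the black mark beside each group is the mean ± SD. ANXA8 and ANXA8L1 are at 0 in all 5 T24R2 libraries, ANXA4 lies higher in T24R2, and the groups overlap for ANXA5.

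ANXA8 binds phosphatidylserine and is known as a late endosomal annexin of stratified epithelia. Its levels in T24 were 186, 179, 180, 178 and 174 CPM, from 1578 to 1793 counts per library. In T24R2 it had 0 counts in each of the 5 libraries. ANXA8 transcripts were thus detected in every T24 library and in none of T24R2. In bulk RNA, fewer cells with a transcript and less of it per cell cannot be told apart. Set against a floor of 3 counts in the T24R2 library with the highest floor, ANXA8 was at least 608-fold lower in T24R2, a bound that covers counting error only.

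ANXA8L1 showed the same pattern at a lower level. It had 27.5, 29.9, 27.8, 28.8 and 27.4 CPM in T24, from 243 to 284 counts, and 0 counts in each T24R2 library, which makes it at least 95.9-fold lower. Of the counts assigned to either copy in T24, 13.6% ± 0.543 (SD, n = 5) went to ANXA8L1, with a range of 12.9% to 14.3%. Summing the copies into 1 gene left it called lower. Exons of ANXA8L1 also overlap those of 2 unnamed genes on the same strand, ENSG00000279458 over 342 bases and ENSG00000285402 over 121 bases, and both genes had 0 counts in all libraries.

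ANXA2 (ENSG00000182718, chr15:60347134-60402883, minus strand), which forms a tetramer with S100A10 and gathers plasminogen at the cell surface, had the highest level of the family in both lines. Its levels were 5724, 5637, 5550, 5282 and 5634 CPM in T24 and 3139, 3060, 3316, 3086 and 3059 CPM in T24R2. Every T24R2 library lay below every T24 library. Mean ANXA2 in T24R2 was 56.3% of that in T24 (log2 fold change -0.83, SE 0.04). In T24 it took 0.525% ± 0.0142 of all counts and in T24R2 0.33% ± 0.00809 (SD, n = 5). Adding the counts of its pseudogenes to ANXA2 left the log2 fold change at -0.83.

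ANXA11 (ENSG00000122359, chr10:80150889-80205572, minus strand), which tethers RNA granules to lysosomes and binds the calcium sensor PDCD6, was at 274, 272, 263, 274 and 266 CPM in T24. In T24R2 it was at 153, 139, 140, 135 and 143 CPM. The T24R2 libraries were all lower, with a mean at 52.6% of T24 (log2 fold change -0.93, SE 0.04). ANXA7 (ENSG00000138279, chr10:73375101-73414076, minus strand), also called synexin, is known for promoting membrane fusion in secretion. It was at 172, 166, 166, 162 and 166 CPM in T24 and at 99.8, 93.2, 104, 104 and 97.1 CPM in T24R2, again without overlap. Its log2 fold change was -0.74 (SE 0.05). An unnamed gene on the opposite strand, ENSG00000233144, covers 105 exon bases of ANXA7 (3.67%), and taking all of its counts off ANXA7 gave -0.81.

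ANXA4 (ENSG00000196975, chr2:69644425-69827112, plus strand) was the member that rose. It binds membranes of secretory epithelia in a calcium-dependent way and forms arrays on them. ANXA4 was at 39.1, 39.9, 39.2, 39.4 and 38.7 CPM in T24 and at 74.3, 69.4, 70.3, 77.4 and 78.6 CPM in T24R2. The groups were far apart compared with their spread, which had an SD of 0.435 CPM in T24 and 4.13 CPM in T24R2. The log2 fold change was 0.91 (SE 0.06).

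The other 4 members differed by less than the fold change minimum. ANXA1 (chr9:73151865-73170393), a mediator of the resolution of inflammation that signals through formyl peptide receptors, ranged from 285 to 311 CPM in T24 and from 339 to 370 CPM in T24R2 (log2 fold change 0.25, SE 0.04). ANXA3 (chr4:78551747-78610451), known from neutrophil granules, ranged from 160 to 184 CPM and from 193 to 219 CPM (0.21, SE 0.05). For these genes the T24R2 libraries all lay above those of T24. ANXA6 (chr5:151100706-151157785), which carries a duplicated annexin core and has a coding sequence of 2019 bases where the other members have 960 to 1515, ranged from 438 to 476 CPM in T24 and from 338 to 345 CPM in T24R2 (-0.41, SE 0.04), without overlap. ANXA5 (chr4:121667946-121696995), the phosphatidylserine binder used as a stain for dying cells, was at 522 to 550 CPM in T24 and 485 to 537 CPM in T24R2. The ANXA5 groups overlapped, and its log2 fold change of -0.09 (SE 0.04) became 0.07 without scaling beyond library size, a setting that moved the median of all genes to 0.18.

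Levels of different genes were compared per length, as FPKM, which is CPM per kilobase of all annotated exons. In T24 the order of mean FPKM was ANXA2 (481), ANXA5 (183), ANXA6 (83.1), ANXA1 (66.5), ANXA7 (58.2), ANXA8 (36.2), ANXA3 (35.6), ANXA11 (31.7), ANXA8L1 (9.89) and ANXA4 (3.55). The ranges of ANXA8 and ANXA3 overlapped, and all other neighbours in the order were apart. The counts of ANXA8 and ANXA8L1 can lack reads from the stretches they share. Their T24 levels and ranks may therefore be too low with any length used here, as may sums that include them. In T24R2 the order was ANXA2 (271), ANXA5 (171), ANXA1 (78.9), ANXA6 (62.4), ANXA3 (41.2), ANXA7 (34.8), ANXA11 (16.7) and ANXA4 (6.69), with no overlap between neighbours and with ANXA8 and ANXA8L1 at 0. ANXA1 stood below ANXA6 in T24 and above it in T24R2 by this length. Among all tested genes, also by all annotated exons, ANXA2 ranked 67 by FPKM in T24 and 105 in T24R2, and ANXA5 ranked 199 and 165.

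The order below the top depended on which length was used. With the length of the MANE Select transcript in place of all annotated exons, a setting chosen after the data were seen, 6 of 10 members kept their rank in each line. ANXA2 stayed first, at 3581 and 2016 FPKM, and ANXA5 stayed next, at 326 and 306 FPKM. ANXA1 was above ANXA6 in both lines with this length, at 211 against 158 FPKM in T24 and 251 against 118 FPKM in T24R2. ANXA3 moved to rank 5 in T24 and 4 in T24R2, ahead of ANXA6 in T24R2. ANXA8L1 and ANXA4, the lowest in T24, both came to 14.8 FPKM there.

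**Figure D2:**
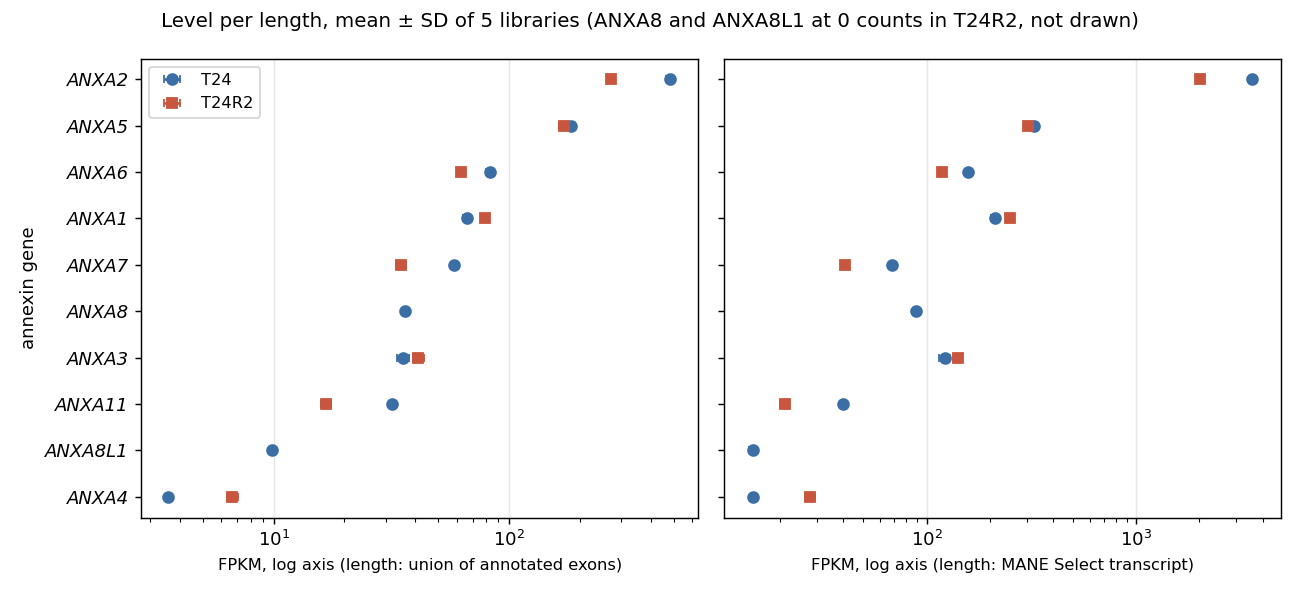
Mean FPKM of each annexin gene in T24 (blue circles) and T24R2 (red squares) on log axes, with bars for the SD of 5 libraries, using the length of all annotated exons (left) or of the MANE Select transcript (right). ANXA2 is highest in both lines with either length, at 481 and 271 FPKM on the left. ANXA8 and ANXA8L1 have no T24R2 point because they are at 0.

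By the length of all annotated exons, the summed FPKM of the 10 members was 988 ± 23.3 in T24 and 683 ± 21.2 in T24R2 (SD, n = 5). Without ANXA2 it was 507 ± 9.99 and 412 ± 12.2, and without ANXA8 and ANXA8L1 as well it was 461 ± 9.37 and 412 ± 12.2. The T24R2 range lay below that of T24 in each case. ANXA2 made up 48.7% of the sum in T24 and 39.6% in T24R2, ANXA5 18.5% and 25.1%, and ANXA1 6.73% and 11.6%. The ratio of ANXA2 to ANXA1 FPKM was 7.24 ± 0.258 in T24 and 3.43 ± 0.0771 in T24R2. These shares and the ratio also depended on the length. By MANE Select transcript length, chosen after the data were seen, ANXA2 made up 77.4% ± 0.333 of the sum in T24 and 69% ± 0.277 in T24R2, ANXA5 7.05% ± 0.162 and 10.5% ± 0.182, and ANXA1 4.57% ± 0.148 and 8.59% ± 0.191. The ratio of ANXA2 to ANXA1 was then 17 ± 0.605 and 8.04 ± 0.181 (SD, n = 5). With either length the ANXA2 share and the ratio were lower in T24R2, and the ANXA5 and ANXA1 shares higher. The sum without ANXA2, ANXA8 and ANXA8L1 was 910 to 965 FPKM in T24 and 880 to 953 FPKM in T24R2 by that length, so those ranges overlapped.

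Of the 9 other genes with symbols that begin with ANXA, 7 were tested, 1 was called higher and 2 were called lower. Among all tested genes 24.9% were called higher and 26.5% lower. ANXA10, an annexin of stomach and urothelium, fell from 12.7 ± 2.8 to 2.62 ± 0.246 CPM (log2 fold change -2.27, SE 0.17, edgeR adjusted p = 5.7e-15). The processed pseudogene ANXA2P2 fell from 39.2 ± 2.66 to 20.4 ± 1.11 CPM (-0.94, SE 0.08, edgeR adjusted p = 9.3e-14), and its reads may in part come from ANXA2. ANXA2R-OT1 rose from 7.6 ± 1.08 to 16.3 ± 1.95 CPM, 215% of the T24 mean (edgeR adjusted p = 3.8e-10). It overlaps ANXA2R, which codes for a receptor of ANXA2, and on the opposite strand ANXA2R-AS1. ANXA9, ANXA2R, ANXA2R-AS1 and the pseudogene ANXA2P1 were not called, with mean levels between 0.938 and 8.63 CPM. ANXA13 and ANXA2P3 had 0 counts in every library.

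The list of annexin partners and receptors held 19 genes. Of the 15 tested, 4 rose, 6 fell and 5 were not called, where 24.9% of all tested genes rose and 26.5% fell. The median log2 fold change was -0.35 beside 0.01 over all tested genes. S100A10, the partner of ANXA2, had 332, 322, 311, 280 and 307 CPM in T24 and 221, 205, 190, 208 and 207 CPM in T24R2 (-0.59, SE 0.05, edgeR adjusted p = 2.9e-14). Every T24R2 library was below every T24 library. Without scaling beyond library size its log2 fold change was -0.43, short of the minimum. The ratio of ANXA2 to S100A10 CPM, which does not allow for length, was 18 ± 0.656 in T24 and 15.3 ± 1.25 in T24R2. Its ranges of 17.2 to 18.9 and 14.2 to 17.4 overlapped. By FPKM over all annotated exons the ratio was 1.57 ± 0.0574 in T24 and 1.33 ± 0.11 in T24R2. This value depends on the length, since annotated exons of ANXA2 span 11574 bases and its MANE Select transcript 1554 bases. A ratio by MANE Select length was not taken, so the relative level of the 2 transcripts is not settled here.

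PLAT and DYSF had the largest falls among the tested partners. PLAT, the tissue plasminogen activator that ANXA2 binds, fell from 2191 ± 102 to 139 ± 6.96 CPM (-3.98, SE 0.05, edgeR adjusted p = 7.7e-42). DYSF, which codes for the membrane repair protein dysferlin, fell from 5.56 ± 1.35 to 0.68 ± 0.401 CPM (-3.01, SE 0.30, edgeR adjusted p = 9.4e-12). VKORC1, the vitamin K epoxide reductase, had a log2 fold change of -1.42, and the lysosomal protease CTSB of -1.14. AHNAK, a giant scaffold that joins the ANXA2 and S100A10 complex, fell from 3154 ± 186 to 1558 ± 51.8 CPM (-1.02, SE 0.04, edgeR adjusted p = 1.0e-23).

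Among the partners that rose, NEDD4, a ubiquitin ligase, went from 64 ± 4.55 to 212 ± 6.69 CPM (1.73, SE 0.05, edgeR adjusted p = 2.4e-28). RASA1, a GTPase activator of RAS, had a log2 fold change of 1.08, S100A4 of 1.02 and SRI, the ANXA7 partner sorcin, of 0.80. S100A11, a partner of ANXA1, was at 208 ± 10.6 and 163 ± 10.5 CPM and was not called (-0.35), and S100A6, a partner of ANXA11, was at 894 ± 70.6 and 1202 ± 212 CPM and was not called either (0.43), though it passed with upper-quartile factors (0.50), without T24R2 replicate 3 (0.52) or without scaling beyond library size (0.59). The formyl peptide receptor genes FPR1, FPR2 and FPR3, which code for receptors of ANXA1, were not tested, since they had 0 counts in all T24 libraries and at most 11 in a T24R2 library. TRPC6 was below the filter as well.

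**Figure D3:**
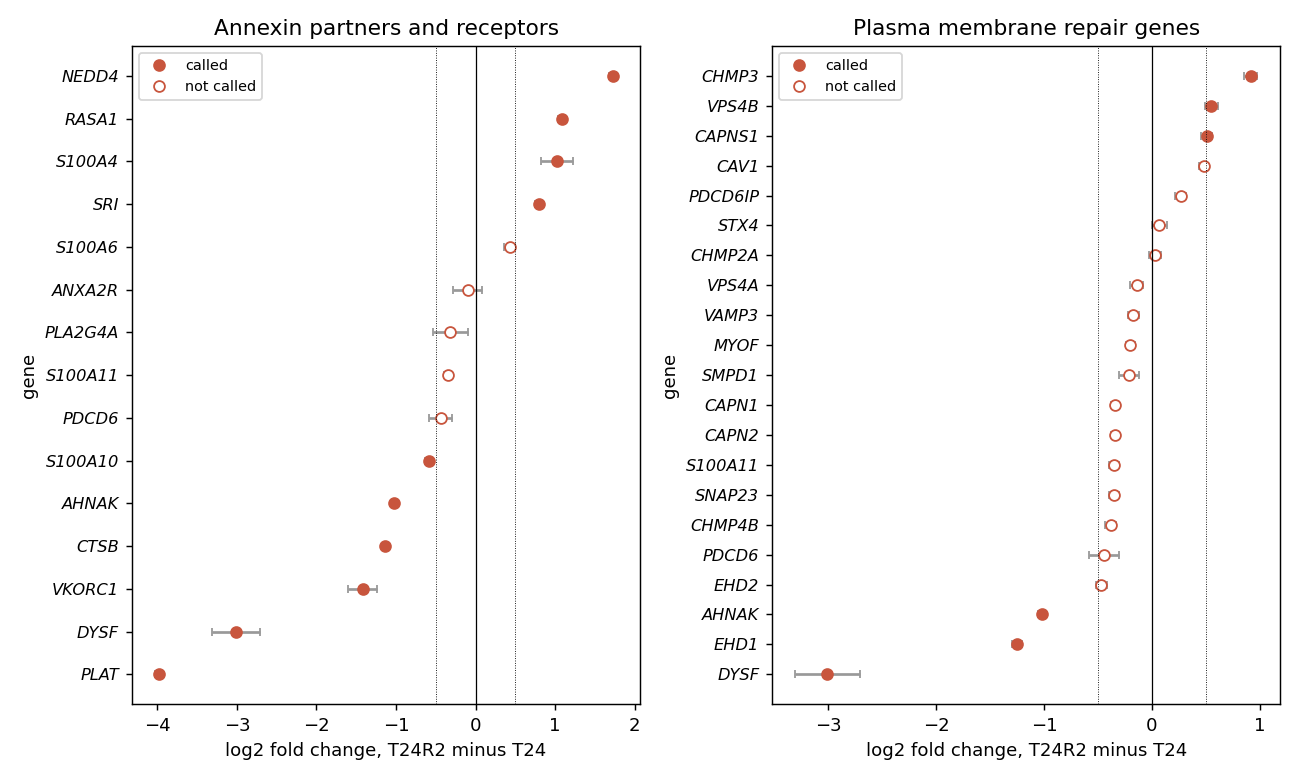
Log2 fold change of T24R2 minus T24 for the 15 tested partner and receptor genes (left) and the 21 tested genes of plasma membrane repair (right), with bars for the standard error. Filled points were called, open points were not, and dotted lines mark 0.5 in either direction. PLAT at -3.98 and DYSF at -3.01 lie lowest, and NEDD4 at 1.73 lies highest.

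Beside the annexins, 24 genes of plasma membrane repair were listed. Of the 21 tested, 3 rose, 3 fell and 15 were not called, where 24.9% of all tested genes rose and 26.5% fell. Their median log2 fold change was -0.21. Those that fell were DYSF and AHNAK, which also stand in the partner list, and EHD1, a membrane-bending ATPase, from 344 ± 28.3 to 145 ± 8.68 CPM (-1.25, SE 0.05, edgeR adjusted p = 1.8e-23). CHMP3 (0.92) and VPS4B (0.55), which belong to the ESCRT machinery that pinches off membrane, rose (edgeR adjusted p = 1.2e-16 and 5.7e-11). This did not hold for the machinery as a whole, since CHMP4B (-0.38), VPS4A (-0.14) and CHMP2A (0.03) were not called. For CHMP4B every T24R2 library lay below every T24 library. CAPNS1, the small subunit of the calpains, passed at 0.51 and fell short of the minimum without T24 replicate 3 (0.48), 4 (0.49) or 5 (0.49) or without T24R2 replicate 3 (0.46), and with the normal shrinkage of DESeq2 (0.50 after rounding). The calpain genes CAPN1 and CAPN2 were not called (-0.34 each), with all T24R2 libraries below those of T24. CHMP4A, TRIM72 and SYT7 were below the filter.

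Among the members, 4 lie on chromosome 10, where 127 of 640 tested genes were called higher and 262 lower, with a median log2 fold change of -0.29. Within 0.5 Mb of the 10 members, 94 distinct genes were tested, of which 28 were called higher and 37 lower, with a median of -0.17. Over all tested genes, 24.9% were called higher and 26.5% lower. The genes around ANXA7 numbered 34, with 2 higher and 23 lower (median -0.70), and the 12 around ANXA11 had 0 higher and 8 lower (median -0.93). Around ANXA4, 9 of 15 genes were higher and 0 lower (median 0.63), among them AAK1 (0.71), whose gene body overlaps that of ANXA4, NFU1 (0.64) and GMCL1 (0.62). For ANXA4, ANXA7 and ANXA11 the median of the neighbours had the sign of the member, at -0.74 for ANXA7, -0.93 for ANXA11 and 0.91 for ANXA4. Among members not called, the signs were alike for ANXA3 (neighbours 1.06, member 0.21). They were opposite for ANXA5 (0.62 and -0.09) and ANXA6 (0.52 and -0.41).

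Around ANXA2, ANXA8 and ANXA8L1 the median of the neighbours did not have the sign of the member. The 3 tested genes within 0.5 Mb of ANXA2 had a median of 2.74, with 2 called higher, and the nearest, ICE2, lay 16726 bases away and was not called (0.49). ICE2 passed the minimum without T24 replicate 3 (0.52) or 5 (0.52) or T24R2 replicate 1 (0.53). On the far side of ANXA2 the nearest tested gene was RPS3AP6, at -0.22. Near ANXA8, 2 of 5 genes were lower and the median was 0.14. The nearest gene on the lower-coordinate side, ZNF488, lay 75869 bases away and fell from 20.4 ± 0.881 to 5.44 ± 0.689 CPM (-1.91, SE 0.12, edgeR adjusted p = 1.7e-17), and on the other side ENSG00000224919, at 12054 bases, was not called (0.14). The other gene called lower, ENSG00000276850, named after its values were seen, had 33 to 47 counts in the T24 libraries and 0 in each T24R2 library, at least 15.1-fold lower.

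Near ANXA8L1, 3 of 6 genes were called higher and 0 lower (median 0.56). BMS1P1 rose (0.89, edgeR adjusted p = 2.6e-05). AGAP7P had a log2 fold change of 0.75 (edgeR adjusted p = 0.0217), and its call was lost without T24 replicate 1 (adjusted p = 0.057) or 3 (0.071) or T24R2 replicate 3 (0.062) or 5 (0.051) in the same edgeR fit. NCOA4 and TIMM23, also in this window and named after their values were seen, were not called. They were at 162 ± 4.9 and 67 ± 2.5 CPM in T24 and at 210 ± 7.39 and 71.4 ± 3.81 CPM in T24R2. What these levels mean for ANXA8L1 was not tested.

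The genes next to the remaining members varied. FRAS1, 7478 bases from ANXA3, rose from 4.84 ± 1.42 to 63.3 ± 1.63 CPM (3.72, SE 0.10, edgeR adjusted p = 3.6e-29), and LINC01094 on its other side had at most 2 counts in a T24 library and 13 to 29 in T24R2. TNIP1, 7129 bases from ANXA6, fell from 425 ± 11.5 to 191 ± 9.69 CPM (-1.16), and CCDC69 on its other side fell too (-2.16, edgeR adjusted p = 5.4e-24). Beside ANXA5, EXOSC9 was not called (0.01), and TNIP3 had at most 2 counts in a T24 library and 32 to 64 in T24R2. The nearest genes to ANXA7 were CFAP70, which rose (2.72), and MSS51, which fell (-1.15, edgeR adjusted p = 0.00178). ENSG00000233144, which overlaps ANXA7, was called lower (-0.52) and fell short of the minimum without T24 replicate 5 (-0.47) or T24R2 replicate 1 (-0.45). Beside ANXA11, TMEM254 fell (-0.81) and LINC00857 was not called (-0.33). ANXA1 had 0 tested genes within 0.5 Mb, and the nearest, ZFAND5 and RORB, lay 786630 and 1326942 bases away, with ZFAND5 not called (-0.04) and RORB at no more than 1 count in a T24 library and 13 to 36 in T24R2.

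**Figure D4:**
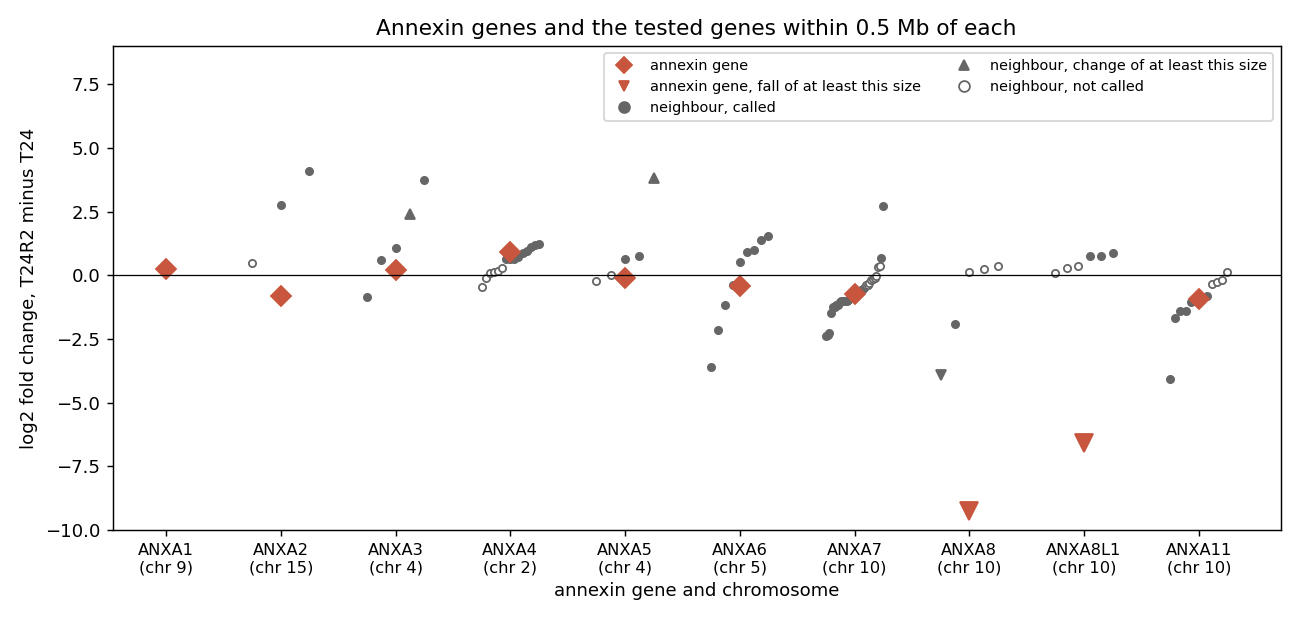
Log2 fold change of T24R2 minus T24 for each annexin gene (red) and the tested genes within 0.5 Mb of it (grey, filled where called). Triangles are drawn at the bound for genes that no library of T24, or none of T24R2, counted more than 3 times. The genes around ANXA7 and ANXA11 lie mostly below 0 (medians -0.70 and -0.93), and those around ANXA4 mostly above 0 (median 0.63).

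RefSeq promoter windows of GRCh38.p14, taken here as the 250 bases before a start site, were at hand for 9 of the 10 members. They were searched on both strands for TGANTCA, the AP-1 motif, GGGCGG, the GC box, and TATAAA, the TATA box, letters that 6.57%, 42.6% and 10.7% of 35116 windows hold. ANXA2 held all of these motifs, with 1 TGANTCA, 3 overlapping GGGCGG and 1 TATAAA, and no other member held the AP-1 letters. The TATA box letters also stood in the ANXA1 window and in that of 1 of 3 start sites of ANXA11. GGGCGG stood in at least 1 window of ANXA4, ANXA5, ANXA6, ANXA7, ANXA8L1 and ANXA11, and ANXA3 held none of the motifs. Shown are windows of called genes of chromosome 10 that were picked because their motifs differ, with matches in capitals. The first is the part of the ANXA7 window before its first annotated exon (chr10:73414077-73414308, minus strand). The other is the window of the ANXA11 start site that holds TATAAA (chr10:80205809-80206058, minus strand). The genes as a whole do not differ in this way. Another ANXA11 window (chr10:80205538-80205787) held 3 GGGCGG, as did the full ANXA7 window. A match in these letters is no evidence of a bound factor.
ANXA7: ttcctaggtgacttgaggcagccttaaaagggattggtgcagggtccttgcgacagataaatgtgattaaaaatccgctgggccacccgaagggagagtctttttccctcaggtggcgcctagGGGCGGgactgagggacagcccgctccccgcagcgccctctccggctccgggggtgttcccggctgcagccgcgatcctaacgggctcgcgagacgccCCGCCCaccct
ANXA11: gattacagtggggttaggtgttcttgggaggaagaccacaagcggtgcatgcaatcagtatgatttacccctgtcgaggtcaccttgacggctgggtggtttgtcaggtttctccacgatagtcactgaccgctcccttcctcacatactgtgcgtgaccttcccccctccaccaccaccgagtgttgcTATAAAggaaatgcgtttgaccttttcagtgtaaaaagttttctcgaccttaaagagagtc

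Among the 6531 genes that averaged 32 CPM or more, those whose log2 CPM profile over the 10 libraries, centred on its mean, was nearest to that of ANXA4 were IP6K1 (root mean square distance 0.0394), TBC1D5 (0.0491) and PEBP1 (0.0567). Their log2 fold changes were 0.92, 0.97 and 0.85, close to that of ANXA4 by the way they were picked, since the profile spans both lines. Nearest to ANXA8 were LAPTM5 (0.2), KRT19 (0.259) and MPZL2 (0.295). These genes reached the mean of 32 CPM through T24 only. With ANXA8 at 0 in T24R2, their distances depend on the value of 0.5 added before the logarithm. KRT19, a keratin of simple epithelia, had 267 ± 7.23 CPM in T24 and at most 3 counts in any T24R2 library.

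The lines were also set against markers of cell types. Of 6 epithelial markers, 5 were above 3 counts in every T24 library and 3 in every T24R2 library, with a summed level of 4835 to 5568 CPM in T24 and 2988 to 3187 CPM in T24R2, and CDH1, which codes for E-cadherin, was at the floor in all libraries. Of 8 urothelial markers, 3 and 1 were above it, summing to 31.9 to 36.3 CPM and 2.17 to 5.21 CPM, with UPK1B, UPK3A and KRT20 at the floor in all. Fibroblast markers (2 and 1 of 6) summed to 8.86 to 11.2 CPM and 0.445 to 1.84 CPM, with COL1A2, COL3A1, DCN and LUM at the floor, and immune markers (1 and 0 of 5) to at most 1.79 CPM. Endothelial markers (2 and 1 of 3) summed to 225 to 278 CPM in T24 and 1.6 to 2.5 CPM in T24R2, nearly all of it in T24 from CDH5. The summed epithelial, urothelial, fibroblast and endothelial markers were thus all lower in T24R2. Among the members, ANXA2, ANXA7, ANXA8, ANXA8L1 and ANXA11 were called lower, ANXA4 was called higher, and ANXA1, ANXA3, ANXA5 and ANXA6 were not called. The part of the cell identities that these markers stand for in the annexin levels was not tested.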

How the data were processed

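RNA-seq of 5 T24 and 5 T24R2 libraries was used. The authors used STAR 2.7.0 for alignment (hg38), SAMtools for removing duplicates and multiply mapped reads, and featureCounts 2.0.1 for counting fragments on GENCODE 39 genes. Counting used strand option 1, although the kit named is not described as marking strand. The deposited values are raw counts per gene, with totals of 9257843 to 10840954 per library. Floors of 3 counts cover counting error only. From the counts, edgeR 4.0.16 in R 4.3.3 was run on 16181 genes (filterByExpr, TMM, glmQLFit, glmQLFTest, Benjamini-Hochberg). DESeq2 1.42.0, other scalings and filters, a replicate block, other fold change minimums, merged paralogs or pseudogenes and leaving out each library were alternatives. CPM and FPKM use TMM-scaled library sizes.

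The members and lists were chosen with earlier results of these data known. Named genes are the members, other genes with ANXA symbols, up to 5 called genes each way from the partner and the repair list, the closest tested gene to either side of a member and the 3 genes with profiles closest to the members with the largest rise and fall; further genes of these lists were named after their values were seen. Transcripts came from GENCODE 44 and promoters from RefSeq GRCh38.p14. The steps were tested on simulated counts of 16181 genes, where edgeR called 193 of 200 changed genes and 3 unchanged genes. Far fewer genes changed there than the 51.4% called in the data. The simulation therefore did not test the scaling under changes that broad, nor changes below the fold change minimum.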

Additional observations from a re-analysis of the deposited data

How the results depend on the processing

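Of 229 log2 fold changes of the 10 members under the alternatives, 221 kept their side of the threshold, and the 8 that did not came from changing the fold change minimum. With a minimum of 1, 0 members were higher and 2 lower, 0 repair genes higher, 1 other ANXA gene lower, and 12 neighbouring genes higher and 24 lower. With no minimum, 3 members were higher and 7 lower, 2 other ANXA genes higher, and 5 repair genes higher and 14 lower. Without scaling beyond library size, 2 other ANXA genes were higher. With a mean of at least 100 counts, for which fewer genes were tested, 1 other ANXA gene was lower, and 17 neighbouring genes were higher and 22 lower. Leaving out each library in turn kept 1 member higher and 5 lower, and gave 26 to 30 neighbouring genes higher and 36 to 39 lower. By MANE Select transcript length, added after the data were seen, 6 members kept their rank in T24 and 6 in T24R2, the latter counting ANXA8 and ANXA8L1, tied at 0. Without T24 replicate 1 or 4, 8 members kept their rank in T24, with ANXA3 and ANXA8, whose ranges overlapped, trading places. The replicate numbers did not pair the libraries: same-numbered libraries deviated from their line means with correlations of -0.021 to 0.016, and 1 of 5 T24 libraries correlated best with its own number. With the replicate block, 1 member was higher and 5 lower, and 27 neighbouring genes were higher and 37 lower. With 0 counts in T24R2, the depth of these libraries gives only a bound for ANXA8 and ANXA8L1, and their fitted log2 fold changes, from -14.03 to -7.12 over the alternatives, depend on the tool and its prior.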
